A study of Mus musculus with 13 samples.

Results

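The genes described here encode 10 subunits of the mammalian SWI/SNF chromatin remodelling complexes: Smarca4, Smarca2, Arid1a, Arid1b, Arid2, Pbrm1, Smarcb1, Smarcc1, Smarcc2 and Smarcd1. They were chosen by measured values, as a group around Smarca4, which carried protein-altering variants in 2 of the leukaemia libraries. Those variants and the libraries that hold them are therefore a description and not a finding. Calls were assigned to a gene by the deposited gene annotation. In these calls 15365 gene names occur, among them 8 of the 10 members, and Smarcd1 occurs only in the copy number tables, while Smarcb1 occurs in none.

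Genomic DNA from 7 sorted GFP+ populations was compared, 1 whole-genome library for each, all taken from the bone marrow of C57BL/6 mice at 8 to 10 weeks of age. Acute leukaemia followed retroviral overexpression of N-Myc, and the mice of the empty control gave GFP+ cells without a further marker. The leukaemia populations were B-ALL (B220+GFP+), T-ALL (CD3+GFP+), AML (Mac1+Gr1+GFP+), AUL (negative for these lineage markers), and M-MPAL and T-MPAL, the Mac1/Gr1+ and the CD3/4/8+ fraction of mixed-phenotype leukaemia. Each library of an MPAL fraction or the control was made from 1000000 cells, and each of the other 4 from 2000000. The sources used here do not give how many mice each library came from, or whether M-MPAL and T-MPAL came from the same mouse. DNA calls hold no expression, so the labelled cell types were not checked against marker genes. No non-leukaemic DNA of the same mouse was used here, so an inherited variant and one acquired in the leukaemia cannot be told apart in any library.

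SWI/SNF complexes use the energy of ATP to slide or evict nucleosomes and so open regulatory DNA. Each complex holds 1 of the alternative ATPases Smarca4 (BRG1) and Smarca2 (BRM), around which core and accessory subunits assemble. In blood, Smarca4-containing complexes take part in the development of lymphoid and myeloid cells, and several subunit genes are recurrently mutated in human cancers.

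The 7 libraries together held 294 calls in the members, of which 34 were single nucleotide variants (SNVs) and 260 were short insertions or deletions (INDELs). These came from 15 distinct SNVs and 158 distinct INDELs, a distinct call being a position with its alternative allele. By the deposited annotation 287 calls lay in introns, 4 in a 3′ UTR, 1 in a 5′ UTR and 2 in exons, and 0 were at splice sites. Both exonic calls were in Smarca4. Over all genes an exonic or splicing call was present in 439, set beside 21627 protein-coding genes. Most genes thus had none, and nothing was read from the absence of such calls in the other members. A call was termed private where 1 library alone held that allele, on 10 or more reads, and 80 calls in the members were private, 7 SNVs and 73 INDELs. A private call was termed stringent with a quality score of 100 or more, 4 or more alternative reads making up a share of 0.2 or more, and a position outside segmental duplications, which 12 of the 80 met.

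Most INDELs in the members were changes in the length of short tandem repeats, and the runs in which the main examples lay are shown for that reason. Each entry gives up to the first 30 bases of the deposited alleles (mm10, + strand, 5′ to 3′), and capitals mark the bases that were deleted or inserted, placed at the start of the run. The coordinates are those of the reference bases shown, and the whole run is 39 to 58 bases long in these examples.
Smarca4, deletion in 6 libraries, chr9:21621176-21621205: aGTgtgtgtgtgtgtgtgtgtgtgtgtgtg
Smarca2, insertion in all 7 libraries, chr19:26753279-26753304: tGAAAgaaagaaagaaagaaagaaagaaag
Arid1b, deletion in AML, AUL and T-MPAL, chr17:5302094-5302123: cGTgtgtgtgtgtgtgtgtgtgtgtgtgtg
Arid1b, deletion in the empty control, chr17:5302094-5302123: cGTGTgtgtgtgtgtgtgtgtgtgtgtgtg
Arid2, deletion in M-MPAL and T-MPAL, chr15:96297682-96297711: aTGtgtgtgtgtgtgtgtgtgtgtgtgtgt

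Smarca4 (gene ID 20586, chr9:21616106-21704230) encodes one of the 2 ATPases. In M-MPAL it carried a G-to-A change at chromosome 9, position 21642434, in exon 10. The change lay at coding base 1603, the first base of codon 535, and was annotated as the missense change E535K in 3 transcripts. The alternative allele was read in 25 of 53 reads, a share of 47.2% (exact 95% binomial interval 33.3 to 61.4%). These reads split into 12 on the forward and 13 on the reverse strand, and the call had a quality of 222 and a mapping quality of 48. The intervals are for counting error alone, because the reads carry no molecular identifiers and can be copies of 1 molecule.

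In AML, Smarca4 carried a G-to-C change at position 21677576, in exon 26. It lay at coding base 3673, the first base of codon 1225, and was annotated as D1225H in 3 transcripts. The alternative allele was read in 13 of 28 reads, a share of 46.4% (27.5 to 66.1%), with 9 reads on the forward and 4 on the reverse strand. The quality was 222 and the mapping quality 48. The changes lay 35142 bp and 690 codons apart, and neither lay in a repeat or a segmental duplication or was listed in dbSNP. Each replaces an acidic residue, E535K with lysine and D1225H with histidine.

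Each share was near the middle of its own library. The 1274 stringent private SNVs of M-MPAL had a median share of 44.4% (interquartile range 37.0 to 52.9%), and the 228 of AML had a median of 42.9% (36.7 to 52.9%). The depth of 53 reads at E535K was higher than at 98.9% of the stringent private SNVs of M-MPAL, whose median was 24 reads. On chromosome 9 alone, 48 such SNVs of M-MPAL had a median depth of 25 reads. No copy number call covered Smarca4 in M-MPAL, and the cause of the depth at E535K was not tested. The depth of 28 reads at D1225H was higher than at 75.9% of the stringent private SNVs of AML, whose median was 21 reads. No call of another library lay nearer than 6965 bp to E535K or 26404 bp to D1225H. The tables list called sites only, so the other 6 libraries have no recorded depth at either position, and a missing call does not show that the reference allele was read.

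**Figure D1:**
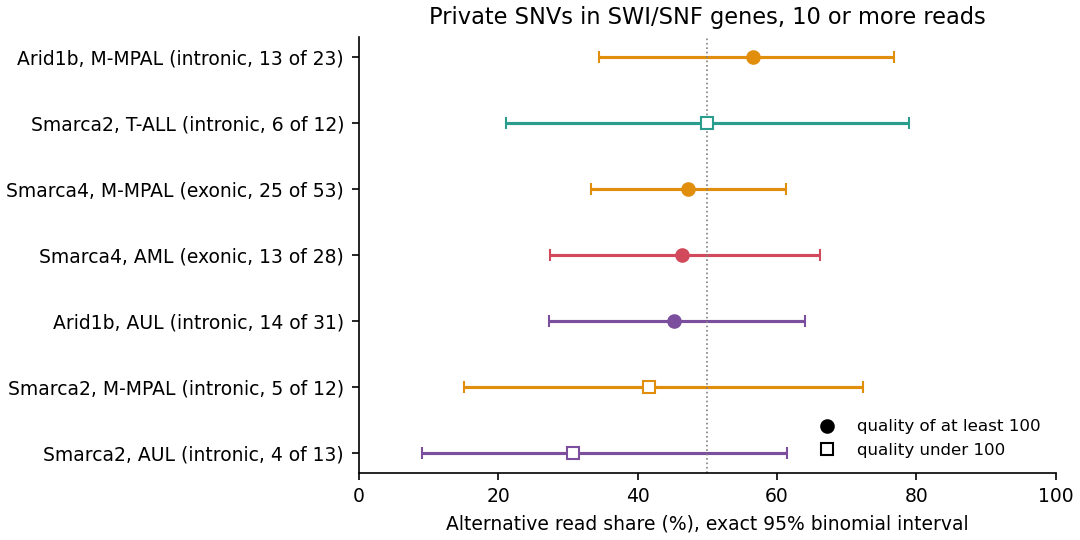
Alternative read share in percent (x axis) of the 7 private SNVs with at least 10 reads in the members, 1 line per SNV with its gene, library and reads. Bars are exact 95% binomial intervals, the dotted line is at 50%, filled circles have a quality of at least 100 and open squares a lower one. The Smarca4 changes sit at 47.2% and 46.4%, and the interval of each of the 7 SNVs reaches 50%.

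Smarca4 was the 1 member of 10 with a private protein-altering call in M-MPAL, where 0.12% of 21627 protein-coding genes had one, and in AML, where 0.111% had one. In each other library 0 of 10 members had one, against 0.0925% of protein-coding genes in B-ALL, 0.176% in T-ALL, 0.277% in AUL, 0.134% in the empty control and 0.157% in T-MPAL. Over the 6 leukaemia libraries 1 of 10 members had one, against 0.837% of protein-coding genes. Of the 439 genes with any exonic or splicing call 43.7% had one, and Smarca4 was the only member among the 439. Private protein-altering calls in at least 2 leukaemia libraries and none in the control were found in 0.0786% of protein-coding genes and in 4.78% of the 439. With the stringent definition these shares were 0.00462% and 0.228%, which is Smarca4 alone. Since the members were picked for this pattern, nothing was read from these shares. No other gene had private protein-altering calls in exactly AML and M-MPAL.

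The remaining Smarca4 calls were INDELs in simple repeats. The 2-base deletion in the GT run shown above was carried by 5 of 25 B-ALL reads, 6 of 25 T-ALL reads, 7 of 29 AML reads, 6 of 15 AUL reads, 4 of 14 T-MPAL reads and 3 of 18 control reads. It was not called in M-MPAL, and the shares in the 6 libraries ran from 16.7 to 40.0%, with overlapping intervals. Another intronic deletion, at position 21649399, was carried by 4 of 22 T-ALL reads and 7 of 27 M-MPAL reads, and a further one, at 21683929, by 5 of 28 AML reads. In the 3′ UTR a 2-base deletion at position 21703980 was read in 6 of 14 reads in B-ALL, 5 of 13 in AML and 7 of 16 in the empty control. A 4-base deletion of the same run was read in 7 of 26 reads in T-ALL. Leukaemia and control libraries overlapped in these repeat calls.

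Smarca2 (chr19:26605073-26778321), the alternative ATPase, had no exonic call in any library. Its 3 SNVs were intronic, lay in simple repeats and were each called in 1 library. They were read in 6 of 12 reads in T-ALL (quality 47.9, listed in dbSNP), 5 of 12 in M-MPAL (quality 63.0) and 4 of 13 in AUL (quality 41.1). At the position of the M-MPAL change, AML had an insertion (6 of 10 reads) and the empty control a deletion (5 of 13 reads). These 3 SNVs fell below the stringent quality, unlike the Smarca4 changes.

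Smarca2 held 45 distinct INDELs. The GAAA insertion shown above was called in all 7 libraries with every read alternative: 9 B-ALL reads, 11 T-ALL reads, 9 AML reads, 8 AUL reads, 10 M-MPAL reads, 9 T-MPAL reads and 6 control reads. A 1-base insertion in an LTR at position 26615445 was likewise called in all 7, on 4 to 15 reads. These were the only member INDELs called in every library, the control included. Of the private INDELs of Smarca2, those of the stringent set were a deletion in AUL (10 of 20 reads) and an insertion in T-MPAL (5 of 10 reads).

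In B-ALL, Smarca2 lay whole inside a region given 1 copy in place of the normal 2, which covered chr19:23358001-34581000 (11.22 Mb). The deposited genotype of this call was A, with a genotype confidence of -1.0. Of the 15 calls of 1 copy in B-ALL, 14 had a confidence below 0. The meaning of such values was not given in the sources used here. Of 10 members this was the 1 with a loss in B-ALL, where a loss touched 3.25% of protein-coding genes, and 0 members had a gain there, against 3.26%. The 6 Smarca2 calls of B-ALL comprised 3 with only alternative reads and 3 heterozygous calls with shares of 28.6 to 41.7%, all 3 in repeats. Of those with only alternative reads, 1 rested on 1 of 1 read. The others were the insertions with only alternative reads in all 7 libraries, the control included. B-ALL had 6 INDELs in Smarca2, against 8 to 15 in the other libraries. The part of the lower copy number in that count was not tested.

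Arid1a, Arid1b and Arid2 encode large DNA-binding subunits that set the type of complex: Arid1a and Arid1b belong to the BAF form, and Arid2 and Pbrm1, a protein with several bromodomains, to the PBAF form. None of these 4 had an exonic or splice-site call in any library, like most protein-coding genes. Arid1b (chr17:4994297-5347656) is the longest member with a span of 353 kb, and it had 4 SNVs and 53 distinct INDELs, the most INDELs of any member. A C-to-T change at position 5031850, outside repeats, was read in 13 of 23 reads in M-MPAL (56.5%, 34.5 to 76.8%; quality 215). A G-to-C change at position 5305123, in a SINE, was read in 14 of 31 reads in AUL (45.2%, 27.3 to 64.0%; quality 222). With the Smarca4 changes these were the 4 stringent private SNVs of the 10 members, and all 4 shares lay between 45.2 and 56.5%. The other Arid1b SNVs rested on 3 of 3 reads in T-ALL and 5 of 7 in AUL.

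The GT run of Arid1b shown above varied between libraries in the length of its deletion. The 2-base deletion was read in 7 of 21 reads in AML, 4 of 11 in AUL and 7 of 24 in T-MPAL, and the 4-base deletion in 11 of 21 in the empty control. The control's call counted as private only because its allele differed. A 4-base CTAT insertion at position 5053936 was read in 10 of 10 reads in T-MPAL, and a 2-base AC insertion at position 5275441 in 12 of 22 in M-MPAL. Both positions also carried deletions in other libraries, in T-ALL on 1 of 1 read at the CTAT run, and in T-ALL (6 of 15 reads) and AML (3 of 19) at the AC run. A 2-base deletion at position 5023290 was read in 6 of 20 reads in the empty control. A GT insertion at position 5191496 was shared by B-ALL (8 of 17 reads) and AML (12 of 18 reads).

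Arid2 (chr15:96287522-96405463) had 1 SNV, read in 3 of 3 reads in AML, and 12 distinct INDELs. The 2-base deletion in the TG run shown above was the only member INDEL called in exactly the M-MPAL and T-MPAL fractions, at 11 of 24 reads (45.8%, quality 137) and 10 of 25 reads (40.0%, quality 103). This deletion is listed in dbSNP. T-ALL had a 2-base insertion in this run (5 of 17 reads). Of the 34 member INDELs called in exactly 2 libraries, this 1 was 2.94%, against 4.40% of the 33367 such INDELs over all genes. The 5′ UTR call was a 3-base deletion in the empty control, read in 3 of 20 reads (quality 47.2).

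Arid2 was also given 3 copies in both MPAL fractions. The region covered chr15:95389001-96550000 (1161 kb) in M-MPAL and chr15:96240001-96545000 (305 kb) in T-MPAL. Smarcd1 (chr15:99702287-99713995), which encodes a bridging subunit, had no SNV or INDEL call, and was given 3 copies in the same fractions, within chr15:98641001-99869000 (1228 kb) in M-MPAL and chr15:97289001-99825000 (2536 kb) in T-MPAL. The deposited genotype of each of these gains was AAA, with no second allele. The genotype confidence was 1.57 for Arid2 and 1.14 for Smarcd1 in M-MPAL, and 6.31 and 0.627 in T-MPAL. These were 2 of 10 members with a gain in each fraction, against 3.87% of protein-coding genes in M-MPAL and 4.25% in T-MPAL. No member had a loss in either, against 4.17% and 0.0416%. Both genes lie on chromosome 15, so they are not separate observations. The heterozygous shares in Arid2 were 45.8% for the 1 call in M-MPAL and 21.2 to 40.0% for the 4 calls in T-MPAL, all in repeats. These calls differ from the genotype AAA, and the cause of that was not tested.

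**Figure D2:**
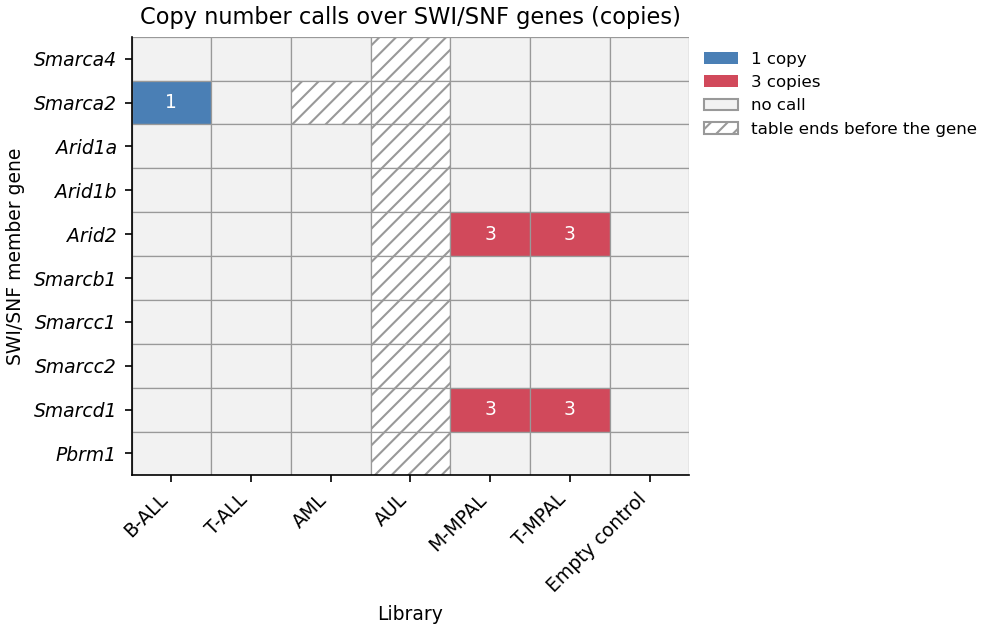
Copies given by the deposited copy number tables for each member (rows) in each library (columns), with 2 as the normal number. Smarca2 has 1 copy in B-ALL, Arid2 and Smarcd1 have 3 in M-MPAL and T-MPAL, and hatched cells belong to tables that end before the gene.

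No member was inside a copy number call in T-ALL or the empty control, where gains touched 0.231% and 0.342% of protein-coding genes and losses 0.0462% and 0.0416%. The AML table reached 9 of the 10 members and had no call over them, while gains touched 3.77% and losses 0.00524% of the 19086 protein-coding genes before its end. It stops on chromosome 17 at position 39849000 without a line end, so the copy number of Smarca2 in AML is not known from it. The AUL table stops on chromosome 2 in the middle of a line and reaches 0 of 10 members.

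Arid1a (chr4:133679008-133756769) had 0 SNVs and 9 distinct INDELs, and Pbrm1 (chr14:31019138-31121592) had 0 SNVs and 13 distinct INDELs. In Arid1a a 2-base deletion at position 133724205 was carried by 6 of 15 B-ALL reads, 6 of 20 T-ALL reads, 8 of 18 AML reads and 8 of 22 AUL reads, while M-MPAL (6 of 14) and the empty control (4 of 14) had a 4-base deletion there. In Pbrm1 a 2-base deletion at position 31058116 was carried by 7 of 27 B-ALL reads, 5 of 26 T-ALL reads, 6 of 19 AML reads and 5 of 23 AUL reads, and the control had an insertion there (7 of 19). In Arid2 a 1-base insertion at position 96288304 was read in every read of the same libraries: 13 B-ALL reads, 6 T-ALL reads, 3 AML reads and 5 AUL reads. The only stringent private call of Pbrm1 was a 2-base insertion in an LTR in T-ALL (11 of 28 reads), at a position where AUL, M-MPAL and the control had deletions.

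These 3 INDELs were present in exactly the 4 libraries made from 2000000 cells. They were 33.3% of the 9 member INDELs in 4 libraries, whereas 7.49% of the 6219 INDELs in 4 libraries over all genes had that pattern. The deposited tables differ along the same line: the lowest depth was 1 or 2 reads in those 4 libraries and 5 reads in M-MPAL, T-MPAL and the control. Calls under 5 reads made up 11.5 to 12.4% of all INDEL calls in the 4 libraries and 0 in the other 3. Under 5 reads lay behind 3 B-ALL, 5 T-ALL, 8 AML and 4 AUL calls of the member INDELs. Of the 12 calls behind these 3 INDELs, the Arid2 call in AML had under 5 reads, and the part of the deposition limits in the pattern was not tested.

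The core subunits Smarcc1 and Smarcc2 are scaffold proteins, and Smarcb1 contacts the nucleosome. None of them had an exonic call. Smarcb1 (chr10:75896769-75921614) had no call of any kind in the 7 libraries. Smarcc1 (chr9:110132024-110240178) had 24 SNV calls from 5 distinct SNVs, the most SNV calls of any member, and 0 of them were private. At position 110189634 a G-to-A change listed in dbSNP was read in every read of all 7 libraries: 27 B-ALL reads, 22 T-ALL reads, 23 AML reads, 23 AUL reads, 26 M-MPAL reads, 15 T-MPAL reads and 25 control reads.

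The other 4 Smarcc1 SNVs lay within 136 bp, at offsets of 0, 26, 69 and 136 bp from position 110208354. B-ALL and AML had all 4, T-ALL, T-MPAL and the empty control had 3, and AUL and M-MPAL had 0. The alternative share over the 17 calls ran from 21.4 to 40.5%, below the all-alternative site in the same gene. At offset 69 bp the allele was on 15 of 43 B-ALL reads, 17 of 42 T-ALL reads, 13 of 39 AML reads, 14 of 48 T-MPAL reads and 15 of 50 control reads. The median depth of the 17 calls was 42 reads, against 15 to 27 reads at the all-alternative site. The cause of the higher depth was not tested, and the sites are close enough to share reads, so they are not independent.

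**Figure D3:**
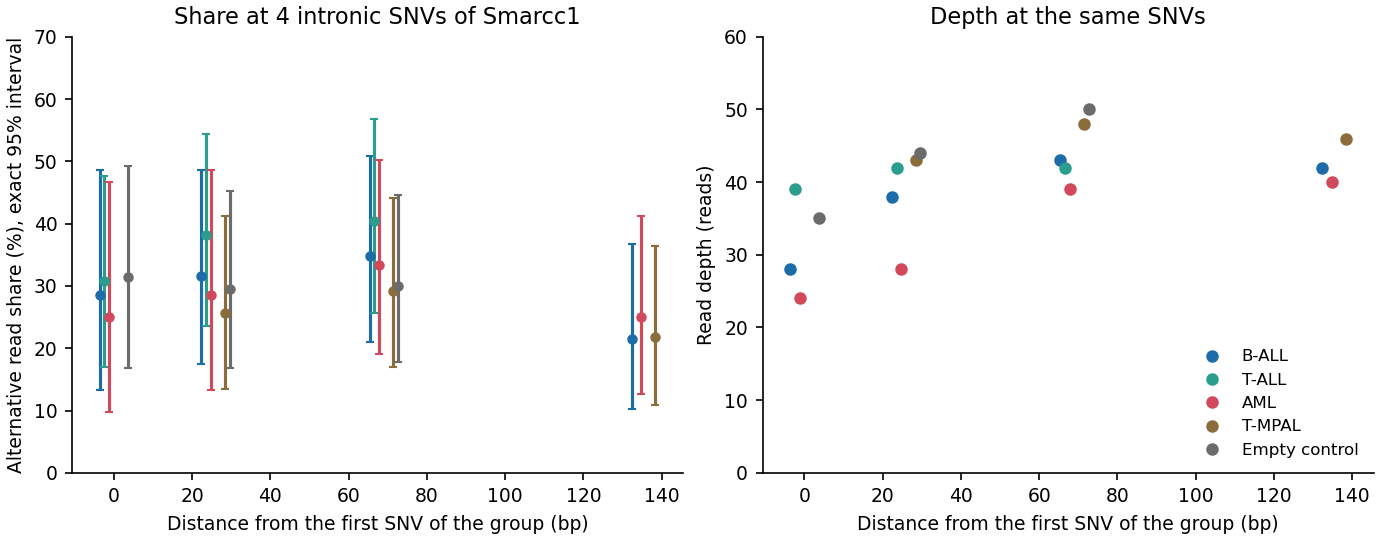
Alternative read share in percent and read depth (y axes) of the 4 close Smarcc1 SNVs by distance in bp from the first of them (x axis), 1 colour per library, with points moved sideways where they would overlap. Bars are exact 95% binomial intervals, the shares stay between 21.4 and 40.5%, and depths run from 24 to 50 reads.

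Smarcc1 had 10 distinct INDELs. T-ALL had 6 INDEL calls in Smarcc1, and the other libraries had 0 to 2. One of the T-ALL calls rested on 1 of 1 read, as did the AUL call. T-ALL also had the most INDEL calls of all libraries, 132423 against 92317 to 129084. The difference in Smarcc1 was not tested. Smarcc2 (chr10:128459182-128490591) had 0 SNVs and 11 distinct INDELs in 31.4 kb. At position 128470141 the libraries differed in the number of GT units. B-ALL had a 2-base insertion (6 of 12 reads) and AML a 2-base deletion (1 of 1 read). AUL, T-ALL and M-MPAL were called with a 2-base deletion and a 4-base insertion together. In these 3 libraries 5 of 5 reads were alternative, a number that counts both alleles. The control was called with a 4-base and a 6-base insertion, also on 5 reads.

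Per library, the members held 5 (B-ALL), 6 (T-ALL) and 7 (AML) SNV calls, and 4 in each of AUL, M-MPAL, T-MPAL and the control, or 0.842 to 1.61 in 10000 SNV calls of a library. Private SNVs numbered 0, 1, 1, 2, 3, 0 and 0 in the order B-ALL, T-ALL, AML, AUL, M-MPAL, T-MPAL and control. The exact 95% Poisson interval of a count of 0 reaches 3.69, so the 3 of M-MPAL (0.619 to 8.77) and the 0 of the control overlap. Over all genes and intergenic sequence the libraries held 2457, 4304, 2574, 7455, 3199, 2656 and 2212 private SNVs in that order. Those of the members were thus 0, 2.32, 3.89, 2.68, 9.38, 0 and 0 in 10000 private SNVs of a library. The 1 of AML and 1 of the 3 of M-MPAL are the Smarca4 changes for which the genes were chosen. INDEL calls numbered 35, 48, 40, 47, 28, 30 and 32 in that order, or 2.96 to 4.10 in 10000 INDEL calls of a library. Private INDELs numbered 9, 15, 13, 13, 5, 8 and 10, or 2.02 to 4.56 in 10000 private INDELs of a library, and the control's 10 (4.80 to 18.4) overlapped with the interval of every leukaemia library.

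**Figure D4:**
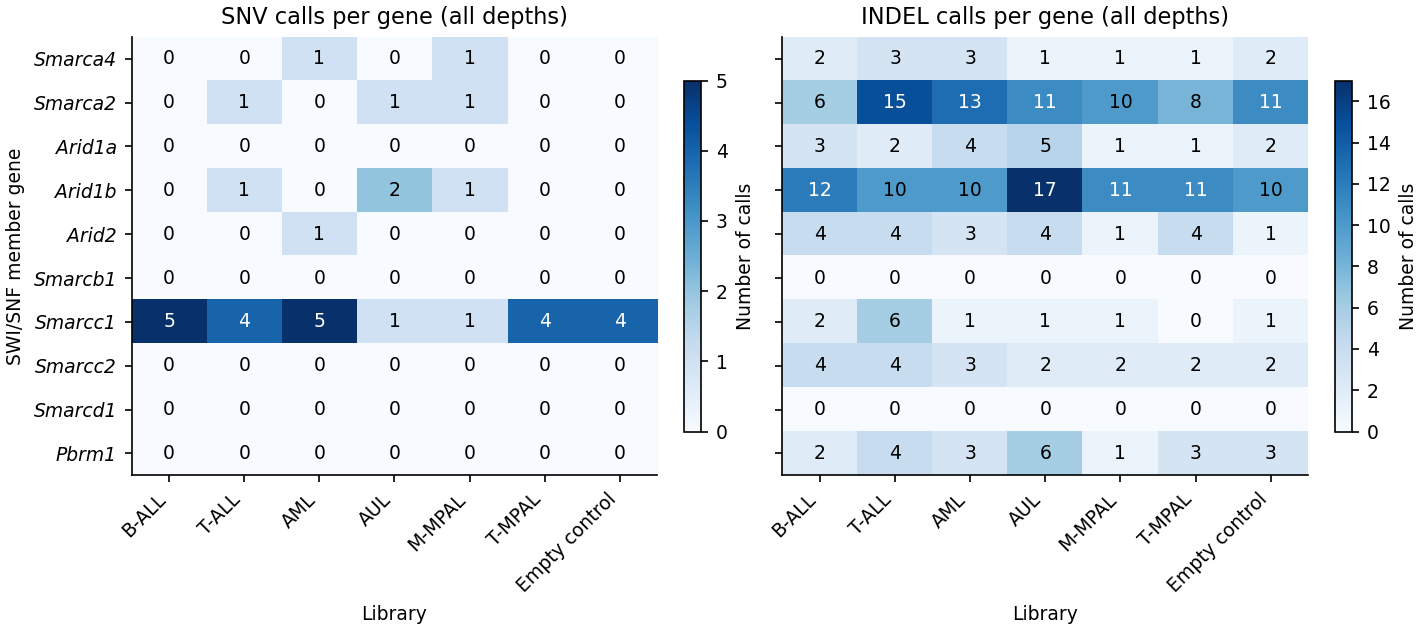
Number of SNV calls and of INDEL calls in each member (rows) and library (columns). INDELs are most frequent in Arid1b and Smarca2 in every library, and the SNV calls of Smarcc1 are absent from AUL and M-MPAL but for 1.

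The INDELs of the members are set beside those of all genes. Of the 158 distinct INDELs 98.1% lay in annotated repeats, against 97.2% of the 163433 INDELs in all genes. Simple repeats held 138, LTRs 10, low-complexity sequence 3, LINEs 2 and satellites 2. Deletions made up 82.9% in the members and 76.2% in all genes, and changes by AC or GT units 65.2% and 61.0%. The share called in 1 library only was 63.3% in the members and 62.5% in all genes. Of 122 positions in the members 25.4% had at least 2 alleles, against 25.3%. With 1 library per group these shares were not tested. Of the 15 member SNVs 66.7% were in 1 library, against 42.5% of 24490 in all genes, and 6.67% were in all 7, against 27.4%. The 10 in 1 library include the 2 Smarca4 changes for which the genes were chosen, and the difference was not tested.

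The number of distinct INDELs followed gene length. Over the 10 members Pearson's r between span and distinct INDELs was 0.904 and Spearman's rho 0.863, given as a description since the genes share the same libraries. Together the members held 14.5 distinct INDELs in 100 kb, against 15.4 in the 13045 protein-coding genes at least as long as the shortest member. Smarca4 was sparse, with 5.67 in 100 kb, and 25.6% of those genes had a lower density. Smarcc2 was dense, with 35.0 in 100 kb (95.2% lower), and Smarca2 had 26.0 (86.6% lower). An SNV or INDEL call was present in 8 of 10 members, against 83.9% of genes of such length and 60.8% of all protein-coding genes. An SNV was present in 5 of 10, against 25.3% of all protein-coding genes, many of them shorter than the members. The share with an SNV among genes of such length was not taken. The 5 include Smarca4, which was chosen for its SNVs, so nothing was read from this difference. The SNV density of the members was 1.38 in 100 kb, against 1.96 in the long genes.

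**Figure D5:**
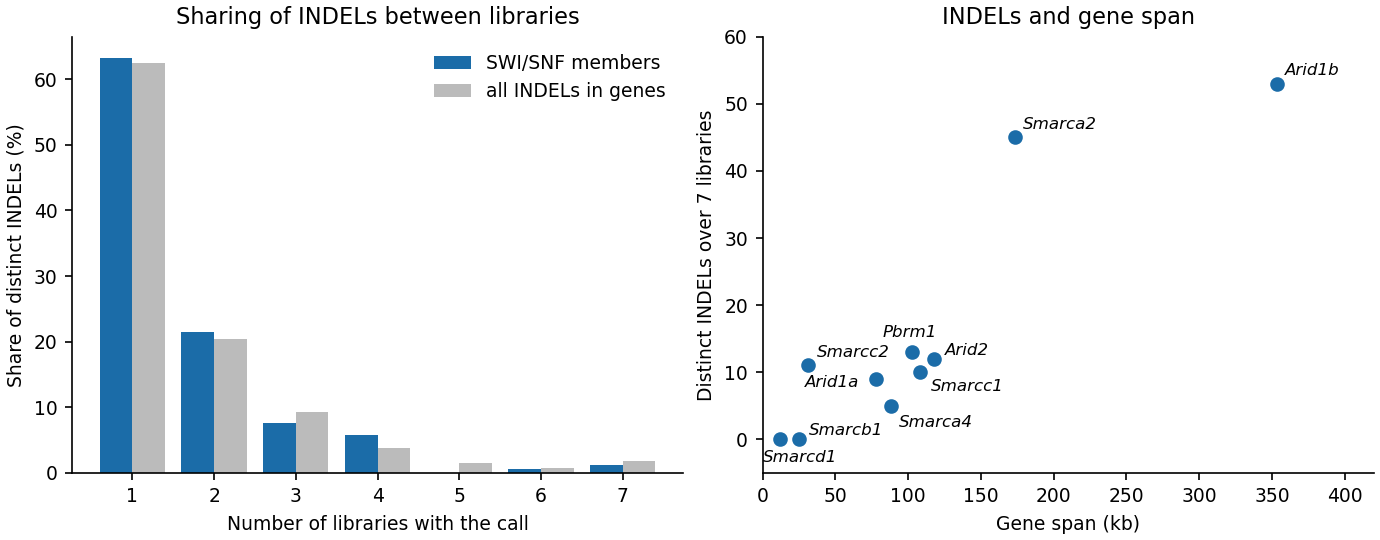
Left, share in percent of distinct INDELs (y axis) by the number of libraries with the call (x axis), for the 158 member INDELs and the 163433 INDELs in all genes. Right, distinct INDELs over 7 libraries (y axis) against gene span in kb (x axis), 1 point per member: Arid1b (53) and Smarca2 (45) stand above the other 8, which have 0 to 13.

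Promoter windows of 300 bp from RefSeq (GRCm38.p6), 250 bp before to 50 bp after the gene start, were found for 9 members in 10 windows, and Arid2 had none. These 10 windows contained 0 calls in the 7 libraries. The windows are short, and the members held 14.5 distinct INDELs and 1.38 distinct SNVs in 100 kb. The share of windows with a call over all genes was not taken, so nothing was read from the 0. Since Arid2 had no window, its 5′ UTR deletion in the empty control, at the first base of the gene, was not counted. No promoter sequence is shown because no call lay in a window.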

How the data were processed

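DNA fragments (350 bp) were sequenced with paired 150 bp reads, aiming at 30x, per the labels' protocols. The submitters' processing notes name BWA and mm10. SNVs and INDELs came from samtools, copy number from FREEC and annotation from ANNOVAR, per the file headers and names. The sources used here give no versions or filters for them. Each deposited call carries a quality score (20 or more) and, in the deposited sample field (unit other), total and alternative reads. The deposited copy number signal is a whole number of copies in steps of 1 kb, with a deposited genotype confidence score.

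A private variant is defined by allele, and protein-altering means nonsynonymous, stop-changing, splicing or exonic INDEL by the deposited annotation. RefSeq (GRCm38.p6) gave the gene spans. Calls were assigned to libraries with Python 3.11.15, pandas 2.3.3 and scipy 1.17.1. Tested on simulated data, 1406 of 1406 planted private variants were recovered and 0 others. The variants were planted by the rule used to recover them, so this checks the code alone. It does not cover missed calls or the differing depth limits of the libraries. With 1 library per group no test was made; counts have exact Poisson and shares exact Clopper-Pearson 95% intervals. The members and the list of 20 further subunits were chosen with earlier results of these data known. All members are named, further subunits where they have an exonic or splicing call or lie in a copy number call under 5 Mb, and genes like Smarca4 where the same libraries had private protein-altering calls. Alternatives were read minimum, quality, repeats, alternative reads, dbSNP, nearby calls and copy number size. Of 13 samples, 6 concern viral integration sites and were not used here. One call is not reported here.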

Additional observations from a re-analysis of the deposited data

How the results depend on the processing

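The single private protein-altering calls in Smarca4 in AML and in M-MPAL, and the 0 in each other library, were the same under every alternative run. Both calls have a quality of 222 and lie outside repeats, dbSNP entries and nearby calls, so no limit used could remove them. A count of 0 cannot fall under a stricter limit. The genes were also chosen for these calls, so nothing was read from this sameness. Of 236 alternative values 179 equalled the reported one or lay within 1.5 times of it, and 57 did not. The 179 include counts of 0 that stayed 0, which stricter limits cannot change, so this tally does not measure stability. Private counts below are in the order B-ALL, T-ALL, AML, AUL, M-MPAL, T-MPAL, control, for those that moved. With a minimum of 5 reads, private INDELs in M-MPAL were 9. With 20 reads, private SNVs were 0 in T-ALL and 1 in AUL, and private INDELs 4, 8, 2, 2, 3, 0 and 4. With a quality of at least 100, and equally in the stringent set, they were 0 in T-ALL and 1 in AUL for SNVs, and 0, 2, 0, 1, 1, 2 and 2 for INDELs. Without repeats, SNVs were 0 in T-ALL and AUL, and INDELs 0, 1, 0, 0, 0, 0 and 0. With 4 alternative reads and a share of 0.2, INDELs were 7 in AML and 3 in M-MPAL. Without dbSNP variants, T-ALL had 0 SNVs and the control 6 INDELs. With no call of another library within 10 bp, INDELs were 5 (B-ALL), 8 (T-ALL), 8 (AML), 7 (AUL), 2 (T-MPAL) and 6 (control). The genes with such calls in at least 2 leukaemia libraries fell from 21 to 11 (4 alternative reads and a share of 0.2), 8 (dbSNP left out), 10 (nearby calls left out) and 1 (quality of at least 100, or stringent). Distinct member SNVs were 7 with a quality of at least 100 and 6 without repeats, and distinct INDELs 23 and 3. For copy number calls under 5 Mb, B-ALL had 0 members in place of 1. These drops follow from fewer calls entering each count. No paired analysis was possible because each group had 1 library, and no replicate could be left out. Depth at uncalled sites, matched normal DNA and the AUL copy number table limit what the absence of a call shows.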

Other observations

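Of 20 further SWI/SNF subunit genes, 18 had a call in at least 1 library, and Smarce1 and Actl6a had none, while 60.8% of all protein-coding genes and 83.9% of those at least as long as the shortest member had a call. An exonic or splicing call was present in 1 of them, Smarcd2, an alternative of Smarcd1 in the complex. Over all genes 439 had such a call, set beside 21627 protein-coding genes, and nothing was read from the 1. In B-ALL a 2-base deletion at chromosome 11, position 106267592, was annotated as a frameshift deletion without a protein position, and was read in 4 of 18 reads with a quality of 27.9. It did not meet the stringent quality, unlike the Smarca4 changes, and 0.0925% of protein-coding genes had a private protein-altering call in B-ALL. Dpf2, which encodes a histone-binding subunit, lay in a region of 4.82 Mb on chromosome 19 given 1 copy in B-ALL (genotype confidence -1.0), the library in which Smarca2 on the same chromosome also had 1 copy.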
